A study of Mus musculus with 4 samples.

Results

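The subject is a group of 9 transcription regulators of cortical layers, chosen by symbol from the 19465 genes of the deposited count table: Cux1, Cux2, Rorb, Fezf2, Bcl11b, Tbr1, Foxp2, Tle4 and Sox5. All 9 were present in the table. They were chosen with earlier results of these data known, so the choice was not blind to the data. The study profiled coronal brain slices from 4 mice, 2 of them wild type and 2 heterozygous for Celsr3, an adhesion receptor of the cadherin family, and its title names the striatum. Ages and sexes were not given in the labels, which describe no treatment and no transgene. The assay was Visium CytAssist for formalin-fixed, paraffin-embedded tissue (version 2), in which gene probes are captured on a grid of barcoded spots, each spot being a small region that can hold several cells.

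Barcode endings split the 12602 spots into 4 barcode sets. The labels name no ending, so 0 of the 4 sets has a known animal, and wild-type and heterozygous mice were not compared. The sets used 4744 different barcodes, of which 1613 occurred in all 4, as positions of a printed grid do. Values are therefore given for each set, without a mean, an SD or a p-value, and there is no replicate error within a set. A level is the counts of a gene per 1000000 counts (CPM) summed over the spots of an area, with an exact 95% Poisson interval that covers counting error only. Probes differ between genes, so levels are compared between areas and sets and never between genes. In bulk spots, fewer cells of a type and less RNA per cell cannot be told apart.

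The mammalian neocortex is built in layers of projection neurons that differ in their targets. Neurons of the upper layers mostly connect within the cortex. Layer 5 holds the neurons that project to the brainstem and spinal cord, and layer 6 those that project to the thalamus. The 9 regulators act in the specification of these neurons during development, in part by repressing each other, and several keep a layer-restricted expression in the adult. Bcl11b and Foxp2 are also known from medium spiny neurons of the striatum.

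Spots were given to areas by marker genes that included none of the 9 regulators. The 5 layer areas held 3206 spots, with 183 to 245 per set in layer 2/3, 97 to 141 in layer 4, 162 to 247 in layer 5, 167 to 245 in layer 6 and 45 to 89 in layer 6b. A further 988 cortical spots fell in no layer. The striatal area held 511 to 852 spots per set, the claustrum and endopiriform area 51 to 130, and a thalamic area was present only in sets 1 and 4, with 150 and 271 spots. Levels of the markers that placed the spots describe the areas and are no test of them. Rprm, a layer 6 marker, was at 236 to 353 CPM in layer 6 and at 10.7 to 27.0 CPM in layer 2/3. Scnn1a, a layer 4 marker, was at 25.4 to 35.0 CPM in layer 4 and at 0.9 to 1.8 CPM in layer 6. Ccn2, a layer 6b marker, was at 561 to 1149 CPM in layer 6b and at 54.2 to 119 CPM in layer 6. Other markers were graded: Coro6, a layer 5 marker, was at 217 to 250.2 CPM in layer 5 and 130.1 to 166 CPM in layer 4. Lamp5, a layer 2/3 marker, was at 512.4 to 816.6 CPM in layer 2/3, 349 to 477 CPM in layer 4 and 287 to 362 CPM in layer 5. Neighbouring layers share spots at their borders, and markers of myelin rose with depth: 7 of 7 white matter genes summed to 976 to 1964 CPM in layer 2/3 and to 20416 to 28877 CPM in layer 6b, with none of them at 0. The part of this gradient in the results was not tested.

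The total counts of sets 1 to 4 were 174761560, 109663162, 165185177 and 90752475. The layer areas alone held 53199399, 35001738, 59798024 and 25098288 counts.

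Promoter sequence was at hand for 8 of the 9 regulators, in 11 entries of the RefSeq table (build GRCm38.p6). Foxp2 had no entry. The 250 bases before the start site are shown for 4 regulators whose levels peaked in different layers: Cux2 (layer 2/3), Rorb (layer 4), Fezf2 (layer 5) and Tbr1 (layer 6). They were picked after their motif matches were seen. Sequences run 5′ to 3′ on the strand of the gene, and capitals mark letters that match a searched motif.
Cux2: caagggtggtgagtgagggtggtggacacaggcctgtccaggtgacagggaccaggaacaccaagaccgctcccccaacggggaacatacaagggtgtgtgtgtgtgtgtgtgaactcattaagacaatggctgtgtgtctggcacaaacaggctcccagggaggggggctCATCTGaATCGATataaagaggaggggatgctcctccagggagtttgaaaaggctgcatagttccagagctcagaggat
Rorb: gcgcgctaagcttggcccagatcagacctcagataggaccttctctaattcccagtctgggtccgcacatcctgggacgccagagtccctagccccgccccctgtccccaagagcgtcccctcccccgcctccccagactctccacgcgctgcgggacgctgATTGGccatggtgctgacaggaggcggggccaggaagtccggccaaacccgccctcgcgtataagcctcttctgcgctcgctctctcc
Fezf2: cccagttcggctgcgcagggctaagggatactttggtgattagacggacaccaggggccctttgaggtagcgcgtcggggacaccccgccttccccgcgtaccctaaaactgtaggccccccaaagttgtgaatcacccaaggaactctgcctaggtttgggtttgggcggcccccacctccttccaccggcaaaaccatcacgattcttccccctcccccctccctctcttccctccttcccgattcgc
Tbr1: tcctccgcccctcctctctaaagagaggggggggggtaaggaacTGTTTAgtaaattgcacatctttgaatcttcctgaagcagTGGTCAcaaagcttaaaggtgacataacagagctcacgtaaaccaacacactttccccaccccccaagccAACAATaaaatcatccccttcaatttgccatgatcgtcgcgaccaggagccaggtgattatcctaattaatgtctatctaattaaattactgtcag

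These stretches lie at chr5:122047826-122048075 (minus strand) for Cux2, chr19:19111197-19111446 (minus) for Rorb, chr14:12345866-12346115 (minus) for Fezf2 and chr2:61804203-61804452 (plus) for Tbr1. Cux2 and Rorb each have 2 entries in the table, of which 1 is shown. The Cux2 entry not shown held none of the motifs searched. The Rorb entry not shown held the forkhead letters TGTTTA and no CCAAT box. The Cux2 stretch held the Cut-homeodomain letters ATCGAT 72 bases before the start, a motif found in 0.728% of 32851 promoter stretches of the same length. It also held the E-box CATCTG, which 14.4% of all stretches hold. The Tbr1 stretch held AACAAT (Sox, in 9.42% of all), TGTTTA (forkhead, in 12.03%) and TGGTCA, the reverse complement of the Bcl11 letters TGACCA (in 11.4%). The Rorb stretch held ATTGG, the reverse complement of the CCAAT box (in 33.8%). The Fezf2 stretch held none of the 10 motifs searched. The other motifs searched were the nuclear receptor letters AGGTCA (in 14.0% of all), the T-box letters AGGTGT (in 11.8%), the Cut-homeodomain form ATCAAT (in 6.72%) and the E-box CAGCTG (in 13.0%). Both strands were searched, and no matches overlapped in the stretches shown. A match is a description of letters and not of a bound site.

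Layers 2/3 and 4 (upper) were first compared with layers 5, 6 and 6b (deep). A gene was called where its level differed at least 2-fold in the same direction in each of the 4 sets, among genes with a mean of the 2 levels of at least 10 CPM in each set. Cux1, Cux2 and Rorb were called higher in the upper layers, 3 of the 9 regulators beside 1.19% of 9251 genes. Fezf2, Bcl11b, Foxp2 and Tle4 were called higher in the deep layers, 4 of 9 beside 1.65% of all genes. Tbr1 and Sox5 were higher in the deep layers in 4 of 4 sets but by less than 2-fold. The rule is a fold in all sets, not a test. Because the minimum is on the mean of the 2 levels, a gene low in 1 group passes through the group where it is high. Foxp2, at 0.325 to 2.78 CPM in layers 2/3 and 4, passed only through the deep layers, so its call followed from the minimum. Bcl11b in layer 4, Foxp2 in layer 5 and Tbr1 and Fezf2 in the striatum were also under 10 CPM in comparisons below. In some or all sets the same held for Bcl11b and Fezf2 in layer 2/3 and for Cux2 and Rorb in layer 6. It also held for Cux2, Rorb and Sox5 in the striatum in some or all sets. Where such a gene was called, it passed through the group where it was high. The counts of called regulators thus followed in part from the minimum. The shares of all genes used the same minimum. Where another grouping of the spots, by Leiden clusters of like spots at 2 resolutions (0.8 and 1.5), moved a ratio by over 1.5 times, its log2 value is given with the gene.

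**Figure D1:**
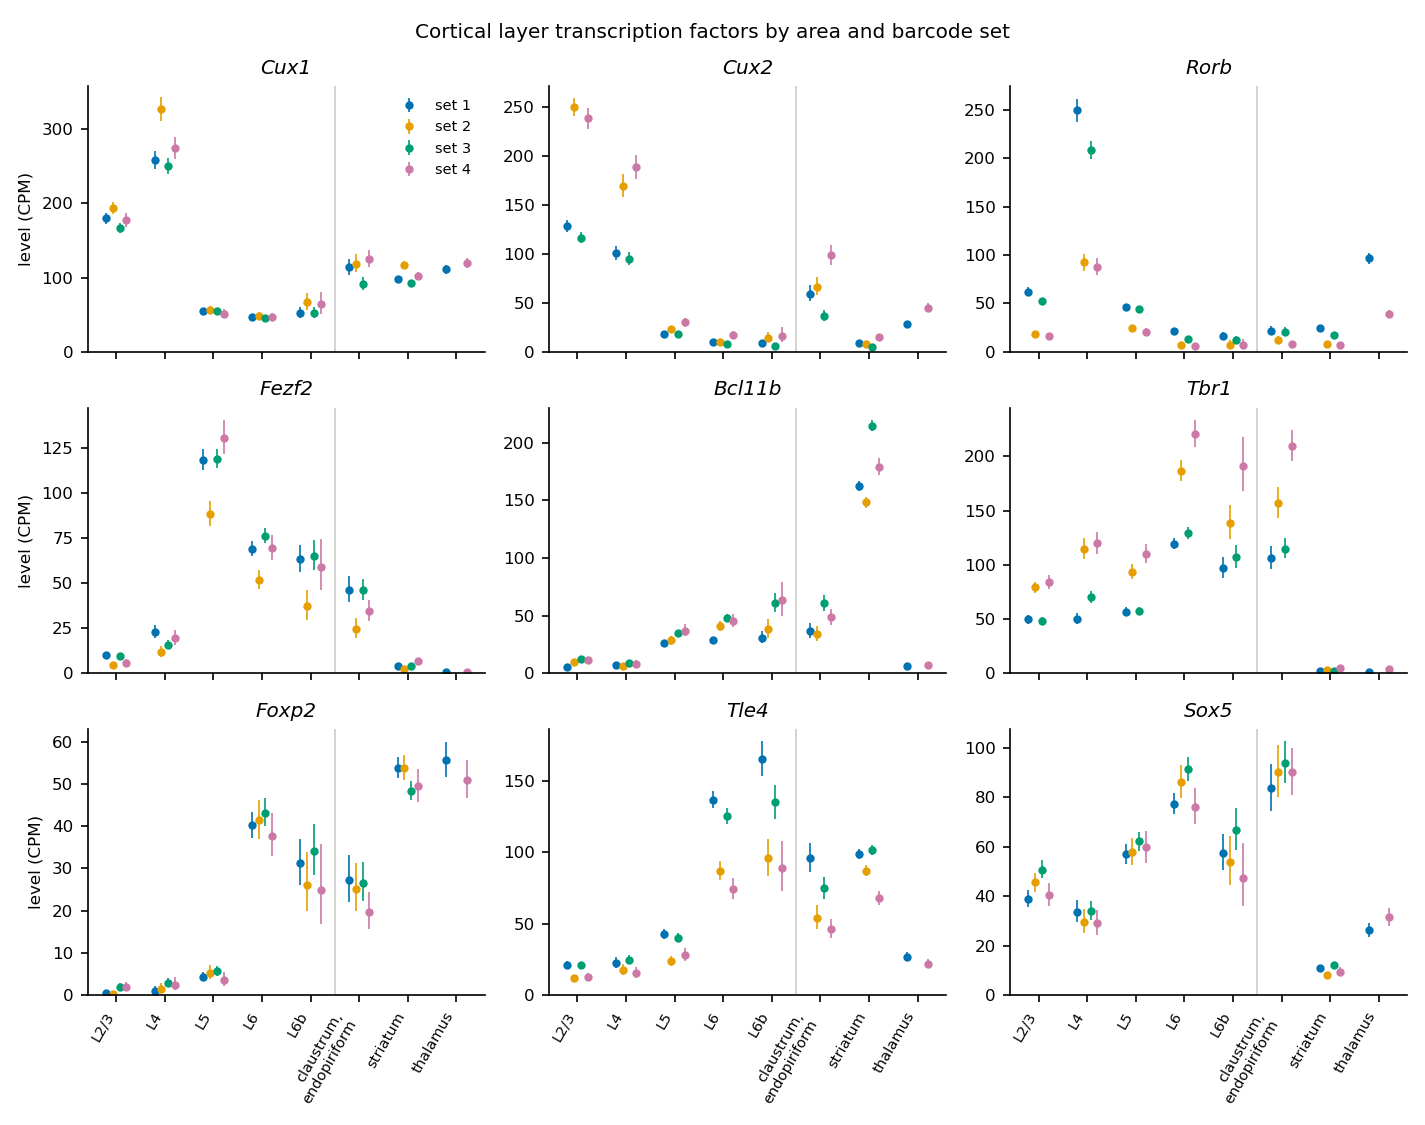
Level of each regulator (CPM, linear axis from 0) by area for barcode sets 1 to 4, with exact 95% Poisson intervals as bars. Thalamus is shown for sets 1 and 4 only. Cux2 and Tbr1 reach higher levels in sets 2 and 4 in most layers, and Rorb in sets 1 and 3.

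Cux1 and Cux2 encode Cut-like homeodomain proteins known for the dendrites and spines of upper-layer neurons. Cux1 stood at 259, 327, 250.2 and 275 CPM in layer 4 of sets 1 to 4 and at 179.8, 194, 166 and 177 CPM in layer 2/3. All values of layer 4 were above all values of layer 2/3, by 1.44-fold to 1.69-fold. In layer 6, its lowest area, Cux1 stood at 46.3, 48.4, 45.1 and 46.8 CPM. The upper layers exceeded the deep layers by 4.12-fold (interval 3.89 to 4.37), 4.28-fold (3.99 to 4.60), 3.92-fold (3.71 to 4.14) and 4.24-fold (3.89 to 4.63) in sets 1 to 4. Layer 6 was the lowest of all areas for Cux1, and layers 5 and 6b, at 51.1 to 67.2 CPM, lay just above it.

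Cux2 was highest in layer 2/3, at 128, 249.7, 117 and 238 CPM in sets 1 to 4. Layer 4 followed at 101, 169.6, 94.8 and 188 CPM. Sets 2 and 4 were high and sets 1 and 3 low in both layers, so the ranges of the layers overlapped, although layer 2/3 exceeded layer 4 by 1.23-fold to 1.47-fold within each set. The level was 7.59 to 17.2 CPM in layer 6 and 5.0 to 14.5 CPM in the striatum. Upper over deep layers came to 9.35-fold (interval 8.42 to 10.4), 14.1-fold (12.5 to 15.9), 8.73-fold (7.89 to 9.67) and 9.60-fold (8.50 to 10.9).

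The claustrum and endopiriform area held Cux2 at 59.3, 66.5, 36.6 and 98.3 CPM, from 4.82-fold to 6.53-fold above layer 6. Cux1 was 2.04-fold to 2.67-fold higher there than in layer 6. Layer 6 was the lowest area for Cux1, and the striatum also exceeded it, by 2.06-fold to 2.42-fold. Cux1 and Cux2 were the 2 of 8 regulators called higher in the claustrum and endopiriform area than in layer 6, beside 0.569% of 9142 genes. In the other direction 0 of 8 were called, beside 0.0438%.

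Rorb encodes a nuclear receptor of the retinoid-related orphan family that marks neurons receiving thalamic input. Its level in layer 4 was 249.7, 92.2, 209 and 87.9 CPM in sets 1 to 4. Layer 2/3 stood at 62.2, 18.3, 51.9 and 16.1 CPM, and layer 5 at 45.7, 24.0, 43.9 and 20.7 CPM. Layer 4 exceeded layer 2/3 by 4.01-fold to 5.46-fold and layer 5 by 3.84-fold to 5.46-fold, and its lowest set lay above the highest set of both neighbours. Layers 2/3 and 5 did not separate: layer 2/3 was the higher of the pair in sets 1 and 3 and the lower in sets 2 and 4. Upper over deep layers came to 4.21-fold (interval 3.91 to 4.53), 2.70-fold (2.34 to 3.13), 4.02-fold (3.73 to 4.32) and 3.34-fold (2.80 to 4.01). With Leiden clusters the log2 ratio of set 4 was 2.46 and 2.59 in place of 1.74.

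Thalamic spots were the next highest for Rorb, at 96.4 CPM in set 1 and 39.1 CPM in set 4. Both values lay between layer 4 and layer 2/3 of the same set. The split by the whole thalamic panel, described with Foxp2 further on, gave 92.3 and 41.3 CPM in these sets and 8.08 and 17.2 CPM in its few thalamic spots of sets 2 and 3. Rorb levels in layers 6 and 6b, at 6.15 to 21.5 CPM, overlapped those of the striatum, at 6.97 to 24.9 CPM.

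**Figure D2:**
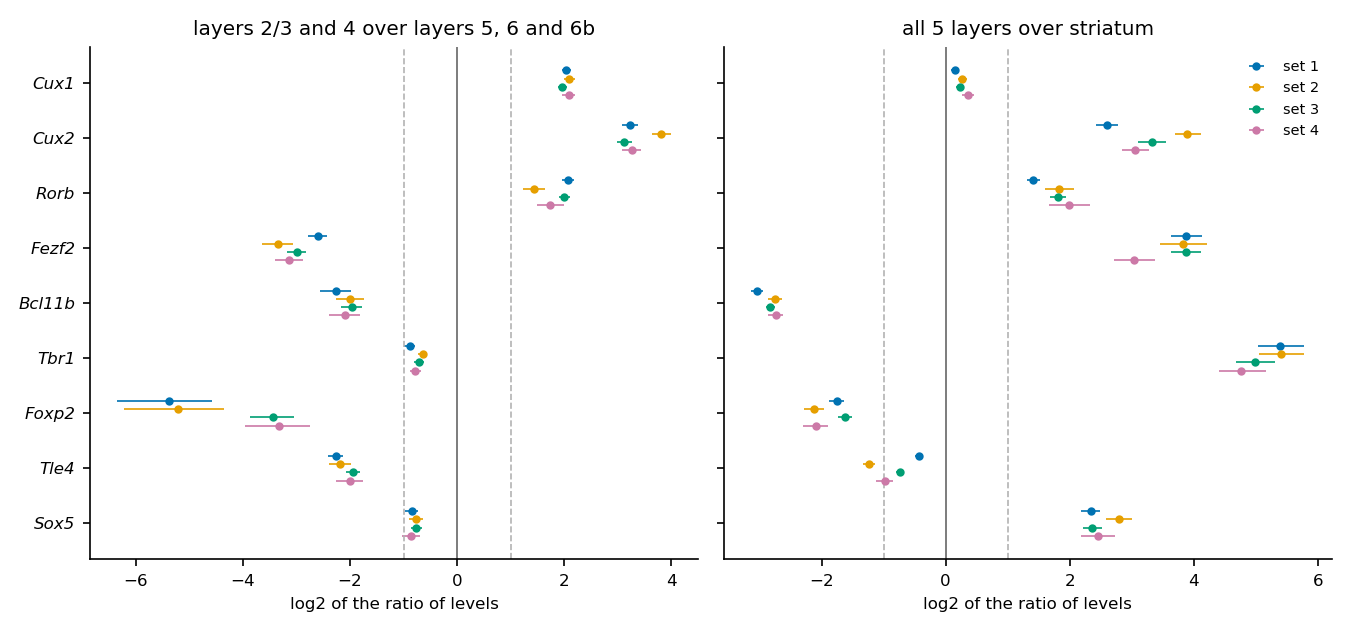
Log2 ratio of levels for each regulator and barcode set, with exact conditional 95% intervals as bars. Left: upper over deep layers. Right: cortex (all 5 layers) over striatum. Dashed lines mark 2-fold. Cux1, Cux2 and Rorb lie right of the upper line on the left side, and Bcl11b and Foxp2 lie left of the lower line on both sides.

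Fezf2 encodes a zinc-finger repressor required for corticospinal neurons. It peaked in layer 5 at 118, 88.4, 119 and 131 CPM in sets 1 to 4, and layer 6 followed at 69.1, 51.9, 76.3 and 69.5 CPM. The lowest value of layer 5 was above the highest of layer 6, and layer 5 exceeded layer 6 by 1.56-fold to 1.88-fold. Layer 4 stood at 11.6 to 22.8 CPM and layer 2/3 at 4.47 to 10.00 CPM. Deep over upper layers came to 6.06-fold (interval 5.37 to 6.87), 10.2-fold (8.37 to 12.5), 7.94-fold (7.03 to 9.0) and 8.80-fold (7.37 to 10.6). With Leiden clusters the log2 ratio of upper over deep layers was nearer to 0 in sets 2, 3 and 4, at -2.70, -2.23 and -1.97 in place of -3.35, -2.99 and -3.14, and at resolution 1.5 it was -2.57, -2.16 and -2.11. With thinned counts it was -2.76 in set 2. Thalamic spots had 0.614 and 0.841 CPM, from 8 counts in each set.

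Bcl11b, also called Ctip2, is a zinc-finger protein needed by corticospinal neurons and by medium spiny neurons. Within the cortex it went from 26.3, 28.6, 34.6 and 37.1 CPM in layer 5 to 29.0, 40.7, 47.6 and 45.2 CPM in layer 6. The order of these layers was the same in 4 of 4 sets, and the interval of the ratio left out 1 in 3 of them, with layer 6 1.10-fold to 1.42-fold above layer 5. Layer 6b stood at 31.0, 38.3, 60.9 and 63.3 CPM. The 6 of 6 striatal marker genes summed to 333 to 421 CPM in layer 5, 595 to 687 CPM in layer 6 and 813 to 1633 CPM in layer 6b, with none at 0. Their part in the Bcl11b levels of layers 6 and 6b, and so in the order of layers 5 and 6, was not tested. Upper layers held 5.34 to 12.3 CPM, and the deep layers exceeded them by 4.82-fold (interval 3.97 to 5.89), 4.00-fold (3.35 to 4.81), 3.92-fold (3.43 to 4.49) and 4.29-fold (3.53 to 5.26).

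Tbr1 encodes a T-box factor of corticothalamic neurons that restrains the layer 5 program. It peaked in layer 6 at 119.7, 187, 129 and 221 CPM in sets 1 to 4. Layer 5 stood at 56.7, 93.4, 57.3 and 110.3 CPM, close to layer 4 at 50.5, 115, 70.7 and 120.1 CPM. Layer 6 exceeded layer 5 by 2.11-fold, 2.00-fold, 2.26-fold and 2.00-fold, and the value of set 2 fell just short of the 2-fold rule. Layers 4 and 5 did not separate, with layer 4 higher in 3 of 4 sets and the ratio from 0.891 to 1.23. The claustrum and endopiriform area, at 106, 157, 115 and 209.7 CPM, was below layer 6 in 4 of 4 sets, by 1.05-fold to 1.19-fold, with ranges that overlapped. Deep over upper layers came to 1.85-fold (interval 1.72 to 1.99), 1.56-fold (1.47 to 1.67), 1.63-fold (1.53 to 1.74) and 1.72-fold (1.60 to 1.84).

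Foxp2 encodes a forkhead factor of layer 6 and striatal neurons, known from human speech disorder. In layer 6 it stood at 40.2, 41.5, 43.3 and 37.8 CPM in sets 1 to 4. Layer 5 had 4.27, 5.26, 5.59 and 3.63 CPM, so that layer 6 exceeded it by 7.73-fold to 10.4-fold, with no overlap. In layer 2/3 Foxp2 had only 5, 4, 28 and 15 counts, or 0.382, 0.325, 1.93 and 1.93 CPM. Deep over upper layers came to 41.9-fold (interval 23.8 to 81.3), 37.1-fold (20.5 to 74.8), 10.9-fold (8.24 to 14.6) and 10.0-fold (6.69 to 15.6). As log2 of upper over deep, sets 1 and 2 had -5.39 and -5.21, which became -4.64 and -4.60 with Leiden clusters, -4.63 and -4.37 at resolution 1.5 and -6.00 and -6.36 with thinned counts. Set 1 had -4.35 with marker panels short of their first gene and -4.61 with unsmoothed scores, and set 4 had -4.08 with thinned counts in place of -3.33. The intervals of sets 1 and 2 did not meet those of sets 3 and 4, while the deep levels themselves were 21.0 to 25.1 CPM, so the sets differed more in the few upper-layer counts than in the deep level.

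Tle4 encodes a Groucho-family corepressor of corticothalamic neurons. It was at 165, 95.6, 135 and 89.2 CPM in layer 6b and at 137, 86.8, 125 and 74.4 CPM in layer 6 of sets 1 to 4. Layer 6b was higher in 4 of 4 sets, by 1.08-fold to 1.21-fold, but the interval of the ratio left out 1 in set 1 only. Layer 5 had 42.5, 23.5, 40.2 and 28.0 CPM, below layer 6 by 2.66-fold to 3.70-fold. Deep over upper layers came to 4.82-fold (interval 4.36 to 5.35), 4.54-fold (3.93 to 5.26), 3.85-fold (3.51 to 4.23) and 4.01-fold (3.39 to 4.77). With Leiden clusters the log2 ratio of upper over deep layers in set 4 was -2.71 and -2.85 in place of -2.004.

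Sox5 encodes an SRY-box factor that times the production of deep-layer neurons. Its level in layer 6 was 77.5, 86.2, 91.5 and 76.1 CPM, above layer 5 at 57.0, 58.0, 62.2 and 59.7 CPM with no overlap. Layer 2/3, at 39.1 to 50.8 CPM, was above layer 4, at 29.0 to 33.9 CPM, again with no overlap. Among the 5 layers, Sox5 was thus lowest in layer 4 in 4 of 4 sets. The claustrum and endopiriform area, at 83.8, 90.3, 94.0 and 90.2 CPM, was above layer 6 in 4 of 4 sets, by 1.03-fold to 1.19-fold, and the interval of the ratio left out 1 in set 4 only. Deep over upper layers came to 1.80-fold, 1.70-fold, 1.69-fold and 1.82-fold, with intervals between 1.55 and 2.05.

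Between neighbouring layers the same rule gave these counts. From layer 2/3 to layer 4, 1 of 6 tested regulators was called lower in layer 2/3 (Rorb, beside 0.763% of 9170 genes) and 0 were called higher (1.05%). From layer 4 to layer 5, 3 of 8 were called higher in layer 4 (Cux1, Cux2 and Rorb, beside 0.876% of 9131 genes) and 2 of 8 lower (Fezf2 and Bcl11b, beside 0.931%). From layer 5 to layer 6, Rorb was called higher in layer 5 (1 of 9, beside 0.983% of 9155 genes), and Foxp2 and Tle4 were called lower (2 of 9, beside 0.874%). Between layers 6 and 6b 0 of 7 were called in either direction, beside 0.416% and 0.908% of 9139 genes. Regulators left out of these counts missed the minimum of 10 CPM in at least 1 set, namely Fezf2, Bcl11b and Foxp2 in the first step, Foxp2 in the second and Cux2 and Rorb in the last. The step from layer 4 to layer 5 had the most calls, 5 of 8, but the regulators tested differed between steps. From layer 5 to layer 6, Tbr1 missed the rule only in set 2, where it fell just short of 2-fold.

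All 5 layers were next compared with the striatum, whose medium spiny neurons are inhibitory and arise outside the cortex. Cux2, Rorb, Fezf2, Tbr1 and Sox5 were called higher in the cortex, 5 of 9 beside 5.74% of 9333 genes. Bcl11b and Foxp2 were called higher in the striatum, 2 of 9 beside 3.96% of all genes. Cux1 and Tle4 were not called.

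Tbr1 had the widest ratio of the 9, at 42.0-fold, 42.2-fold, 31.6-fold and 27.2-fold over a striatal level of 1.82, 2.72, 2.5 and 4.89 CPM. Fezf2 was 14.7-fold, 14.1-fold, 14.6-fold and 8.23-fold higher in the cortex, over 2.60 to 6.57 CPM. Its log2 ratio in set 4 fell from 3.04 to 1.88 and 1.75 with Leiden clusters. Cux2 was 6.07-fold to 14.9-fold higher, Sox5 5.05-fold to 6.91-fold and Rorb 2.67-fold to 3.98-fold. The Cux2 log2 ratio of set 2 was 2.22 in place of 3.90 with Leiden clusters, and at resolution 1.5 set 4 had 3.65 in place of 3.05 for Cux2 and 2.60 in place of 1.99 for Rorb. The 4 of 4 markers of cortical excitatory neurons summed to 2223 to 3489 CPM in the striatal area, with none at 0. In the layers they summed to 4317 to 10403 CPM. The members differed: Neurod6, 1 of these markers, was 18.23-fold to 57.03-fold higher in the cortex than in the striatum. The sum is therefore no measure of cortical neurons in the striatal area. How far spots at the border account for low levels of Tbr1 or Fezf2 in the striatum was not tested.

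Bcl11b in the striatum stood at 163, 148, 215 and 179 CPM in sets 1 to 4, and 19.8 to 30.3 CPM in the cortex. The striatum was higher by 8.21-fold (interval 7.68 to 8.78), 6.70-fold (6.20 to 7.25), 7.10-fold (6.74 to 7.47) and 6.68-fold (6.12 to 7.29). With Leiden clusters the log2 ratio of cortex over striatum in set 4 was -3.78 and -3.82 in place of -2.74. Against layer 6 alone, Bcl11b was 3.64-fold to 5.62-fold higher in the striatum. No cortical layer of any set reached the lowest striatal value.

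Foxp2 in the striatum stood at 53.9, 53.9, 48.4 and 49.6 CPM and was 3.38-fold, 4.37-fold, 3.07-fold and 4.26-fold above the cortex as a whole. With Leiden clusters the log2 ratio of cortex over striatum in set 4 was -3.14 and -3.32 in place of -2.09. Against layer 6 the difference was 1.12-fold to 1.34-fold, with all 4 striatal values above all 4 of layer 6. Thalamic spots held 55.8 CPM of Foxp2 in set 1 and 51.1 CPM in set 4. That level rests on how thalamic spots were told from septal ones: without the split by Tcf7l2, a thalamic gene, it was 34.0 and 41.4 CPM, which places it below the striatum. With a split by the whole thalamic panel it was 53.5 and 52.3 CPM in sets 1 and 4, next to the striatal values, but that split also put 41 spots of set 2 and 47 of set 3 in the thalamus, with Foxp2 at 7.5 and 3.82 CPM.

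Tle4 stood at 98.5, 87.1, 102 and 67.8 CPM in the striatum, above the cortex as a whole by 1.35-fold (interval 1.29 to 1.42), 2.35-fold (2.19 to 2.52), 1.67-fold (1.59 to 1.75) and 1.98-fold (1.80 to 2.18). Its striatal range overlapped that of layer 6. Within sets, the Tle4 ratio of layer 6 over striatum was 0.997 to 1.39. Layer 6 was higher in 3 of 4 sets, and the interval lay above 1 in 2 of them. Cux1 was nearest to even, with the cortex over the striatum at 1.11-fold, 1.21-fold, 1.17-fold and 1.29-fold. Its striatal level of 92.9 to 117 CPM lay between the upper layers and the deep layers, and layer 6 was 2.06-fold to 2.42-fold below the striatum. Between layer 6 and the striatum, Fezf2, Tbr1 and Sox5 were called higher in layer 6 (3 of 7, beside 5.47% of 9271 genes) and Cux1 and Bcl11b lower (2 of 7, beside 4.42%).

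The level of a regulator differed between sets within the same layer by amounts beyond counting error for some members and hardly at all for others. Over all genes with at least 10 CPM on average over the sets, the median ratio of the highest to the lowest set was 1.44 in layer 2/3, and 13.8% of 9755 genes were at least 2-fold apart. There 2 of 6 tested regulators, Cux2 and Rorb, were at least 2-fold apart. In layer 4 they were 2 of 7 (Rorb and Tbr1, beside 13.0%), in layer 5 1 of 8 (Rorb, beside 13.1%), in layer 6 2 of 9 (Cux2 and Rorb, beside 12.8%), in layer 6b 3 of 9 (Cux2, Rorb and Bcl11b, beside 17.6%) and in the striatum 1 of 6 (Rorb, beside 11.3%). The count in layer 5 was at the share of all genes. With 6 to 9 regulators tested, the other counts were too small to be set apart from that share, so they are no result about the group.

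Rorb differed by 3.86-fold between sets 1 and 4 in layer 2/3, by 2.84-fold in layer 4, by 2.21-fold in layer 5 and by 3.57-fold in the striatum. Set 1 was highest and set 4 lowest in each of these areas. Cux2 was 2.14-fold apart in layer 2/3, where set 2 was highest and set 3 lowest, and 1.99-fold apart in layer 4. Tbr1 was 2.38-fold apart in layer 4, with set 4 highest and set 1 lowest, and 1.84-fold apart in layer 6. Tle4 differed by 1.84-fold in layer 6 and 1.85-fold in layer 6b, with set 1 highest and set 4 lowest.

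Cux1 was 1.10-fold apart in layer 5 and 1.07-fold in layer 6. Sox5 was 1.09-fold apart in layer 5 and 1.2-fold in layer 6, and Foxp2 1.14-fold in layer 6 and 1.11-fold in the striatum. All of these ratios were under the median of all genes, which was 1.43 in layer 5, 1.44 in layer 6 and 1.42 in the striatum.

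The sets also differed in depth, with median counts per spot of 52481, 38181.5, 44966 and 26444.5, and sets 2 and 4 had the fewest counts. Depth per spot was evened by thinning each spot to 10000 counts, which left out 9 layer spots. The share of layer 4 spots with a Rorb count was then 92.8%, 47.0%, 84.0% and 60.4% in sets 1 to 4, against 100%, 100%, 100% and 89.4% before thinning. The share of layer 2/3 spots with a Cux2 count was 62.8%, 88.8%, 63.8% and 87.1% after thinning and 99.5%, 100%, 98.7% and 98.2% before. After thinning, sets 2 and 4 had the highest shares for Cux2 and the lowest for Rorb, an order the shares before thinning did not show. The part of depth in the differences of level was not tested. As background, the thinned share with a Rorb count in layer 6b, 1 of its low areas, was 9.41%, 12.3%, 8.99% and 2.22%. Which mice these sets came from is not known from the labels, so the differences cannot be told apart into animal, section position and library.

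**Figure D3:**
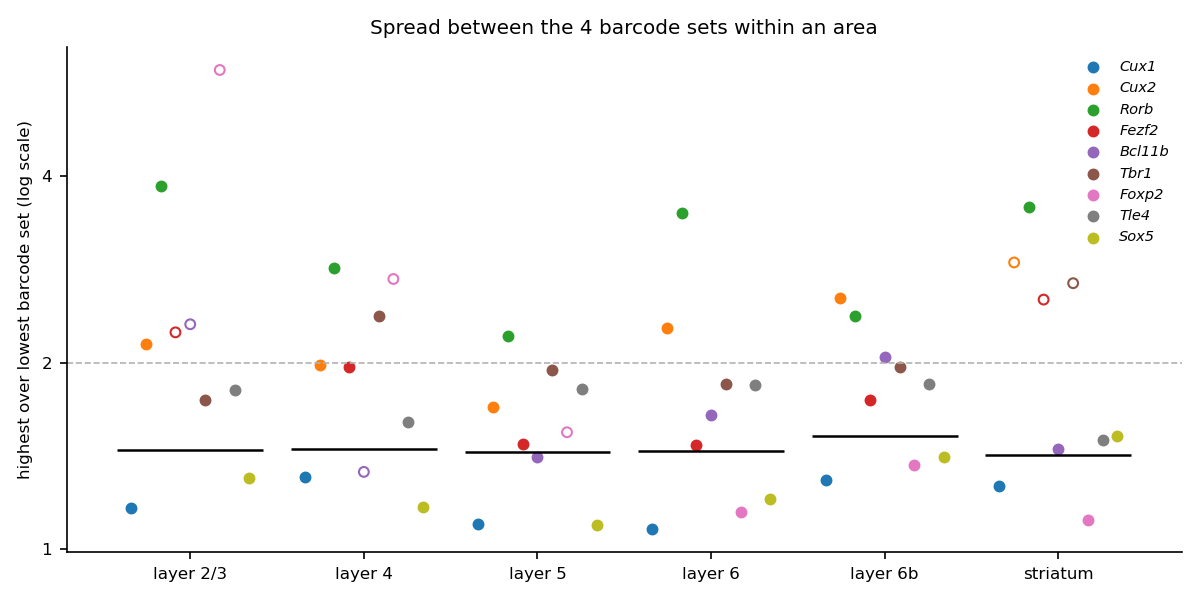
Ratio of the highest to the lowest barcode set (log axis) for each regulator within 6 areas. Filled points were at least 10 CPM on average, open points below that. Black bars mark the median of all genes in the area and the dashed line 2-fold. Rorb lies above the dashed line in all 6 areas.

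Across the spots of the 5 layers, Cux1 and Cux2 had the highest correlation of the 36 pairs, with Pearson's r of 0.70, 0.68, 0.68 and 0.64 in sets 1 to 4, on log counts scaled per spot. Foxp2 and Tle4 followed among deep-layer pairs with 0.61, 0.48, 0.54 and 0.41, and Tbr1 and Tle4 with 0.51, 0.42, 0.49 and 0.34. Cux2 and Fezf2 ranged from -0.62 to -0.59 and were the most opposed pair in sets 1, 2 and 4. In set 3 that pair was Cux1 with Fezf2, which ranged from -0.60 to -0.48 over the sets. Spots of a set share a library, and these values carry the layer structure. Within single layers some pairs were nearer to 0 and others were not. Foxp2 with Tle4 had -0.03 to 0.12 within layer 6, and Cux1 with Cux2 had 0.24 to 0.50 within layer 4. Cux1 with Fezf2 had -0.64 to -0.37 within layer 4, much as over all layers, and Cux2 with Fezf2 had -0.46 to -0.28 there. Cux1 with Rorb had 0.17 to 0.46 within layer 4. Fezf2 and Bcl11b, which work together in corticospinal neurons, had 0.28 to 0.38 over the layers and -0.09 to 0.27 within layer 5.

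**Figure D4:**
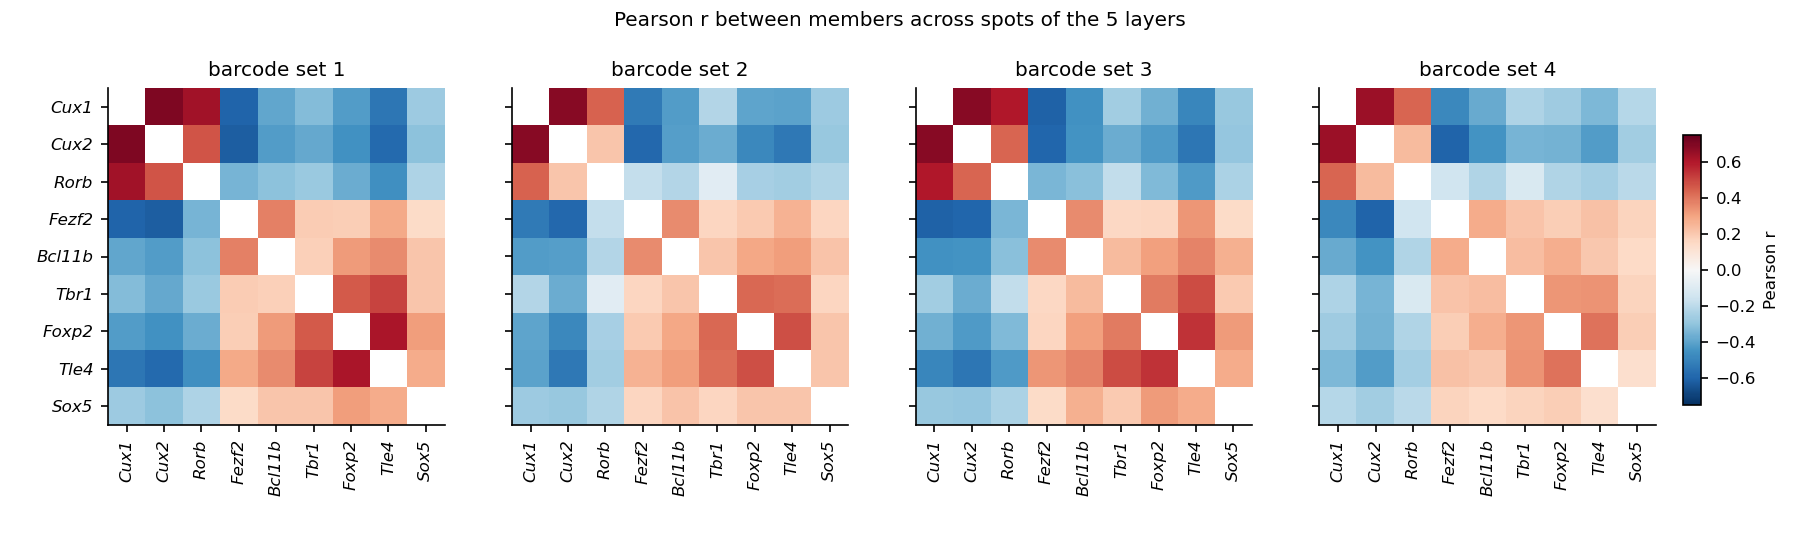
Pearson correlation between regulators across the spots of the 5 layers, in 1 panel per barcode set, coloured from blue (negative) to red (positive). Cux1, Cux2 and Rorb form a positive block that is negative against the other 6, in each of the 4 sets.

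Most spots of a layer held counts of more than 1 regulator. In layer 6, 99.1%, 98.8%, 99.6% and 89.8% of spots had both Tbr1 and Tle4, with exact 95% Clopper-Pearson intervals of 96.8% to 99.9%, 95.9% to 99.9%, 97.7% to 100% and 84.2% to 94.0%. In layer 5, 78.5%, 66.3%, 82.2% and 64.2% of spots had both Fezf2 and Bcl11b. In the striatum, 85.2%, 81.3%, 79.0% and 61.6% had both Foxp2 and Bcl11b. Counts were not thinned for these shares, and set 4, with the lowest median counts per spot, was the lowest for each of these pairs. The part of depth was not tested. A shared spot does not show a shared cell.

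Paralogs of the regulators were looked at as a list of 14 genes, of which 9 passed the minimum of 10 CPM. None of the 9 was called between upper and deep layers in either direction (0 of 9 beside the 1.19% and 1.65% above). With 9 genes, 0 calls is near these shares and is no result about the paralogs. Their median log2 ratio was 0.00, the same as for all genes, against -0.81 for the 9 regulators. Since the regulators were called in both directions, their median is no shift of the group. Rora, the paralog of Rorb, was 1.56-fold to 1.93-fold higher in the upper layers and Tle3 1.88-fold to 2.21-fold. Foxp4 was 1.47-fold to 1.92-fold higher in the deep layers, and Bcl11a 1.25-fold to 1.35-fold. Eomes, Tbx21, Fezf1 and Sox13 were among those too low to be counted. Against the striatum, Foxp1, which like Foxp2 is known from medium spiny neurons, was called lower in the cortex (3.0-fold to 4.33-fold) and Tle3 was called higher (2.08-fold to 3.30-fold), 1 of 9 in each direction beside 5.74% of all genes higher and 3.96% lower in the cortex.

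A second list held 32 other regulators of cortical projection neurons, of which 31 were in the table and 29 passed the minimum. Higher in the upper layers were Neurod1 (4.11-fold to 7.19-fold), Bhlhe22 (3.49-fold to 4.56-fold), Pou3f2 (2.25-fold to 2.37-fold) and Lhx2 (2.07-fold to 2.16-fold), 4 of 29. Higher in the deep layers were Nr4a2 (3.48-fold to 7.23-fold), Zfpm2 (2.94-fold to 4.65-fold) and Ldb2 (2.36-fold to 2.75-fold), 3 of 29, beside 1.19% and 1.65% of all genes in these directions. The list's median log2 ratio was 0.07. Against the striatum 17 of 28 were called higher in the cortex and 0 lower, beside 5.74% and 3.96% of all genes, with Neurod2 at 31.3-fold to 54.8-fold and Emx1 at 23.1-fold to 54.1-fold. Nr4a2 is also a claustrum marker and Neurod6 an excitatory marker used here to place spots, so their own values are not independent of the areas.

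**Figure D5:**
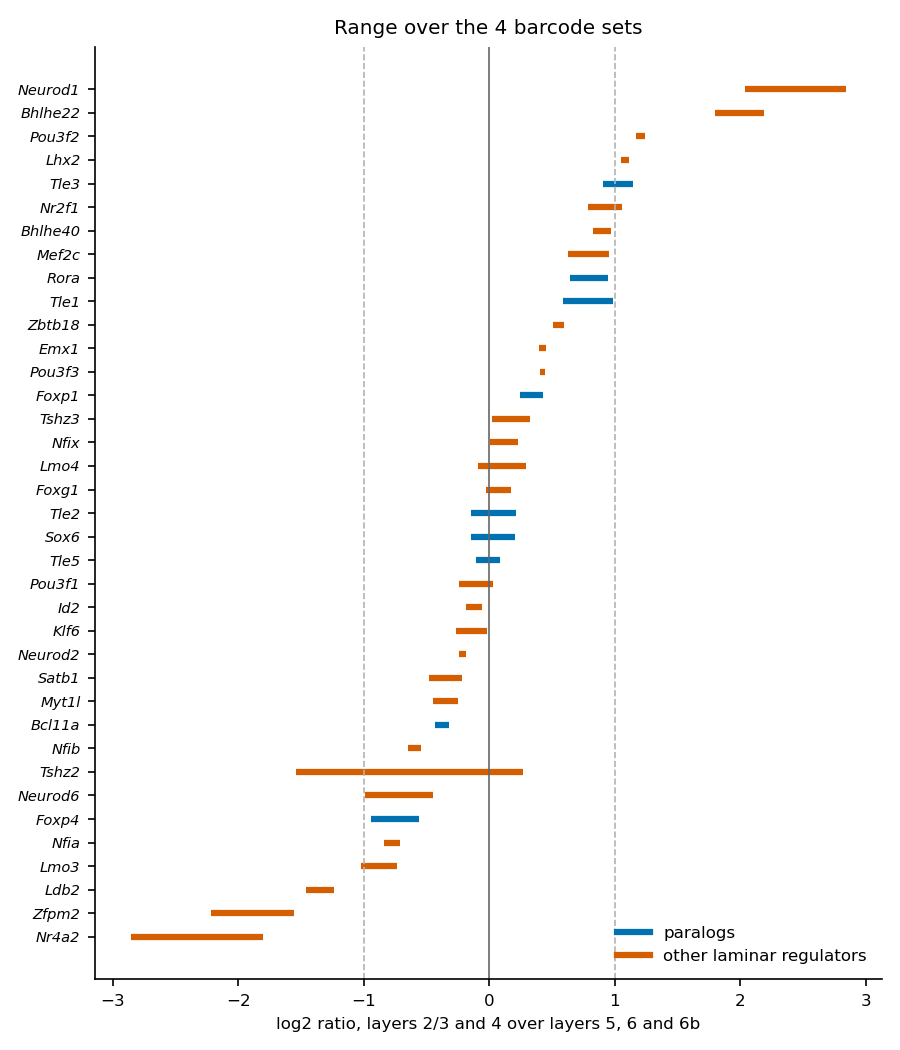
Range over the 4 barcode sets of the log2 ratio of upper over deep layers for the 9 paralogs (blue) and 28 of the 29 other laminar regulators (orange) that passed the minimum of 10 CPM. Dashed lines mark 2-fold. Neurod1 and Bhlhe22 lie furthest right and Nr4a2 and Zfpm2 furthest left.

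The genes most like each regulator were named by Pearson's r of log2(CPM + 1) over 56 profiles of areas and sets, among 10297 genes without the regulators and the area markers. The closest were Calb1 for Cux1 (0.72), Bhlhe22 for Cux2 (0.81), Rora for Rorb (0.88), Myl4 for Fezf2 (0.91), Sez6 for Bcl11b (0.88), Vxn for Tbr1 (0.93), Shb for Foxp2 (0.82), Dtnb for Tle4 (0.79) and Efhd2 for Sox5 (0.86). The next for Rorb were Extl3 (0.88), Car8 (0.87) and Prr16 (0.86), for Cux2 Btbd3 (0.79) and Smoc2 (0.79), and for Tbr1 Tmem178 (0.93) and Ttc9b (0.92). The profiles share libraries, and the lists were not stable: with each set alone, over 14 profiles, 0 to 4 of the 5 closest genes were shared with the list over all sets. Rorb kept 3 of 5 in each of the 4 sets.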

How the data were processed

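Raw counts of 19465 genes in 12602 spots are the values the authors deposited, and the submitters' processing notes name Space Ranger and Seurat. Settings, genome build and spot filter are not given in the sources used here. The 9 regulators, the gene lists and the area markers were chosen with earlier results of these data known. Named genes were the 9 regulators, members of the paralog and laminar lists, and genes among the 5 most like each regulator.

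Spots under 500 counts were left out, which left 12601. Marker scores (mean z within a set) were averaged over the 15 most alike spots (30 principal components of 2000 variable genes without the 9 regulators) and divided by each panel's 99th percentile. The highest panel placed the spot where it reached 0.4, and layer spots also needed an excitatory score above 0. This rule was chosen after looking at the spots and at the regulators' levels by area. The split of thalamic from septal spots went through 3 versions, after Rorb and Foxp2 levels in the septal area had drawn attention to it. The one used sends septal-panel spots with a Tcf7l2 level of at least 0.5 to the thalamus, and the versions moved 0 layer or striatal spots. The hippocampus panel was not used, and septal spots and those of the brain surface panel, led by Ttr and Folr1, were left undescribed. So were the areas of hypothalamus and extended amygdala, cholinergic basal forebrain, white matter, and ependyma with choroid plexus, and the spots in no area. All of these except the spots in no area count where an area is called the lowest of all. No doublet caller was run. A regulator and a paralog of the lists count in the totals but are not reported here by name.

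Levels, shares and ratios have exact 95% intervals for counting error only. Software was Python 3.11.15, scipy 1.17.1, scanpy 1.11.5, leidenalg 0.10.2 and edgeR 4.0.16 (scaling factors only) in R 4.3.3. The 2-fold call and the area rule were tried on simulated counts, and the other steps were not. For the area rule, spots were redrawn from the mean profile of the area already given, so this is no independent check of the areas. The planned genotype tests (edgeR, DESeq2, replicate block, leaving out replicates) were not run, since no set is tied to a sample.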

Additional observations from a re-analysis of the deposited data

How the results depend on the processing

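Counts of regulators at 2-fold were recomputed per set. The calls in all 4 sets and the shares of all genes were not. A gain of 1 regulator on a count of 2 or more stays within 1.5 times, so this limit could not register it. Counts of called regulators per set stayed within 1.5 times the main count of that set in 192 of 192 recomputations over 12 alternatives. They changed in set 4 alone: Tle4 crossed 2-fold, giving 3 in place of 2 regulators higher in striatum (Leiden clusters at resolutions 0.8 and 1.5, and a wider lead of the first panel), and Tbr1 crossed it, giving 5 in place of 4 higher in deep layers (resolution 1.5). Leiden resolution 1.5, unsmoothed scores, a score minimum of 0.6 and the other thalamic splits were added after the data were seen. Of the recomputed ratios, 652 stayed within their counting interval, 139 moved and 1 reversed: the Cux1 log2 ratio of cortex over striatum in set 1 became -0.0142 with thinned counts, and the cause was not tested. Moves were most frequent with Leiden clusters (32, and 28 at resolution 1.5), thinned counts (30) and the score minimum of 0.6 (27). In thalamus the Foxp2 level changed as reported above, and in sets 1 and 4 Rorb stayed within its interval. Of 36 lists of closest genes from single sets, 35 shared under 4 of 5 genes with the list over all sets. No paired analysis was possible because the barcode sets carry no sample or replicate number. For the same reason no search for outlying sets was made. The genotype tests with edgeR, DESeq2 and left-out replicates were not run. Foxp2 ratios rest on 4 to 28 counts per set in layer 2/3 and 7 to 25 in layer 4.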
